A study of Mus musculus with 192 samples.

Results

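Of the 553094 start-site windows that the authors placed against GENCODE genes, 28190 (5.10%) were called intergenic, and these 28190 windows are described here. A window is a stretch of 150 bp on 1 strand of the mm9 mouse genome in which transcription began in at least 1 cell. The members are all windows whose entry in the authors' annotation column begins with the word Intergenic. The call depends on the annotation and not on how many reads a window holds.

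The cells were mouse embryonic fibroblasts (MEFs, connective-tissue cells grown from embryos) of the C57BL/6 strain. Polyadenylated RNA was read at its 5′ end in single cells, so that each sequenced tag marks a place where a transcript began. Every cell had received interferon-beta, an antiviral cytokine, at 100 U/ml for 1 h. The 96 cells of the Naïve-1h group carry the label Naive for pretreatment and the 96 cells of the Pretreated-1h group the label Pretreated. The agent, dose and length of the pretreatment are not given in the labels, and no animal, culture or plate is named. Each group therefore counts as 1 sample, no test between groups was made, and every interval covers counting error only.

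After 15 shallow cells were set aside, 92 naïve and 85 pretreated cells remained, with 305066 to 3857034 tags in a naïve cell (median 2305628) and 502374 to 13174313 in a pretreated cell (median 2650490). All 10 fibroblast markers had a peak on their own strand in at least 1 cell, counting windows of every class but intergenic, with Col1a2, Vim, Sparc and S100a4 in every cell. Of the 10 markers, Thy1 was the rarest, in 1 naïve and 0 pretreated cells. No endothelial marker was listed, and the epithelial, muscle, neural and blood markers reached at most 8 cells of a group.

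A gene's promoter is the place where RNA polymerase II starts, and many promoters also start a second RNA on the other strand, pointing away from the gene. Start sites outside annotated genes can belong to enhancers, which often give short RNAs on both strands, to unannotated genes or upstream exons, or to repeats. B1 and B2 elements are short interspersed repeats (SINEs) of the mouse with their own RNA polymerase III promoters, and ribosomal RNA is made from the 45S precursor gene by RNA polymerase I. A tag on a repeat or ribosomal copy can match many places in the genome, and how such tags were assigned is not given in the sources used here.

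What counts as intergenic depended on the gene catalogue. The authors placed the same windows against 3 annotations. Their RefSeq table kept 24624 of the 28190 windows (87.4%) intergenic and put 773 of them at a promoter, which held 5.91% of the naïve and 8.90% of the pretreated intergenic tags. All 3 tables called 23287 windows (82.6%) intergenic, with 83.8% of the naïve and 72.2% of the pretreated intergenic tags.

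The mm9 sequence of the windows was not used here. For genes at whose RefSeq start an intergenic locus recurred, RefSeq promoters of build GRCm38.p6 are printed instead, to show what lies at these start sites: 100 bases before the annotated start and 50 after, 5′ to 3′. Capitals mark the letters GGGCGG (known as the GC box) and TATAAA (known as the TATA box), each searched on both strands. These 4 genes were chosen after their values were seen: Rpl41 (a protein of the large ribosomal subunit) and Ktn1 (kinectin, an endoplasmic reticulum membrane protein) for the number of cells, AA465934 for its like share of cells in both groups, and Lockd (a non-coding RNA gene downstream of Cdkn1b) as the locus with fewer pretreated cells. The regions are chr10:128549119-128549268 on the minus strand, chr14:47649211-47649360 on the plus strand, chr11:83291599-83291748 on the plus strand and chr6:134928992-134929141 on the plus strand.
Rpl41: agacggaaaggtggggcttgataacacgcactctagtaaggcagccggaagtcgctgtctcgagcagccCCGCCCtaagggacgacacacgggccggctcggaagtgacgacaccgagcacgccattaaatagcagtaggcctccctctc
Ktn1: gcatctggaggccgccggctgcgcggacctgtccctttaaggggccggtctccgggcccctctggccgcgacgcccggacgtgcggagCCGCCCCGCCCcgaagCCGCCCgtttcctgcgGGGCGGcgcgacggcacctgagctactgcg
AA465934: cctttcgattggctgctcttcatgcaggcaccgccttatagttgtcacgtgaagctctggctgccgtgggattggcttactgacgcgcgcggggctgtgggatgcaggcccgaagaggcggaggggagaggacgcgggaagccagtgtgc
Lockd: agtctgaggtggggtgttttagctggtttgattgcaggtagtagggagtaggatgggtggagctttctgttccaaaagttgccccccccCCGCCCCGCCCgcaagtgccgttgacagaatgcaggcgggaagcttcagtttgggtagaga

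The printed stretches are rich in G and C, at 60.7% for Rpl41, 77.3% for Ktn1, 63.3% for AA465934 and 56.7% for Lockd. The Ktn1 stretch holds 4 GC box matches, 2 of them overlapping by 1 base, the Lockd stretch 2 that also overlap, the Rpl41 stretch 1 and the AA465934 stretch 0, and none of them holds the TATA box letters. For Ktn1 the upstream of its entries is printed: the start that RefSeq places at the locus lies 14445 bp from the GENCODE start on mm9, and the entries lie 14445 bp apart on GRCm38. Of the 38 recurrent loci at a RefSeq promoter, which belong to 37 genes, 31 genes had an entry in the RefSeq table and 20 had exactly 1. Among those 20 whole entries (250 bases before the start to 50 after), 14 (70%) held GGGCGG and 1 (5%) held TATAAA on either strand, beside 35.7% and 13.6% of all 32851 promoters. These matches describe the letters only.

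Intergenic windows took a small part of the start-site tags, and a larger one in naïve cells. They held 7787502 tags in naïve cells, 4.29% of all tags in windows (95% exact binomial interval 4.28 to 4.29), and 6311456 tags in pretreated cells, 2.60% (2.60 to 2.60). By cell the share ran from 2.86% over a median of 4.16% to 9.88% in the naïve group, and from 1.70% over 2.48% to 4.81% in the pretreated group. The ranges overlap, but the lowest naïve cell lies above the pretreated median. Peaks, a window as called in a given cell, told the same: 24105 naïve peaks were intergenic (5.05% of peaks) and 18253 pretreated peaks (3.24%), with 160 to 611 per naïve cell (median 250) and 80 to 574 per pretreated cell (median 194). Every other class but promoters also took a larger share of the tags in naïve cells. Introns took 8.68% and 4.74%, exons 13.9% and 12.6% and transcript ends 6.10% and 5.40%, while promoters took 66.99% and 74.6%.

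**Figure D1:**
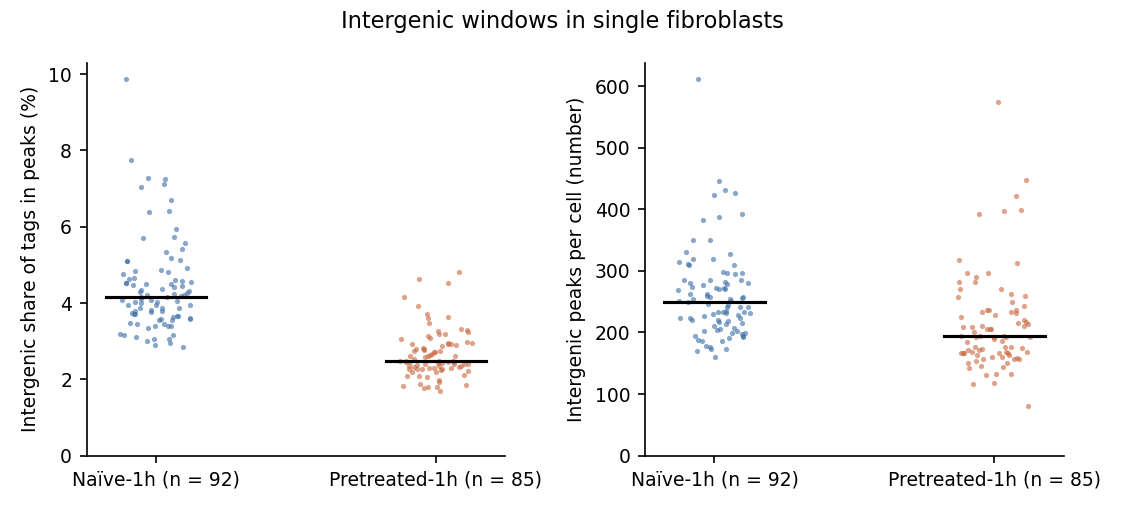
Each point is 1 cell and each bar a group's median. Left, the share of a cell's window tags in intergenic windows (%), with medians of 4.16% in 92 Naïve-1h and 2.48% in 85 Pretreated-1h cells; right, the number of intergenic peaks per cell, with medians of 250 and 194.

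An intergenic peak was as deep in tags in both groups, with a median of 103. Its deposited signal, the tags per 10000000 tags of the cell, had a median of 498 in naïve and 367 in pretreated peaks, below promoter peaks (1063 and 756) and above intron peaks (438 and 331). Exon peaks (510 and 374) and transcript-end peaks (496 and 370) had nearly the same medians as intergenic peaks. Within single cells the median intergenic signal was below the promoter median in 91 of 92 naïve and in all 85 pretreated cells. It was above the intron median in 82 and 79 cells.

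The focus ratio, the fraction of tags that HOMER counts near the leading position of a peak, showed that intergenic starts were sharp. Its median was 0.983 in naïve and 0.978 in pretreated intergenic peaks, beside 0.959 and 0.902 in promoter peaks. Exon peaks, at 0.978 and 0.970, and transcript-end peaks, at 0.976 and 0.967, came close to intergenic peaks. Promoter peaks had a higher signal, and the classes were not compared at equal signal. In each of the 92 naïve and 85 pretreated cells the intergenic median lay above the promoter median. A ratio of at least 0.9 was found in 87.3% of naïve and 75.01% of pretreated intergenic peaks, and a ratio below 0.5 in 1.19% and 2.53%. Against introns there was little difference: the intergenic median was higher in 34, lower in 27 and equal in 31 naïve cells, and higher in 8, lower in 56 and equal in 21 pretreated cells, by a median of 0 and -0.001.

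**Figure D2:**
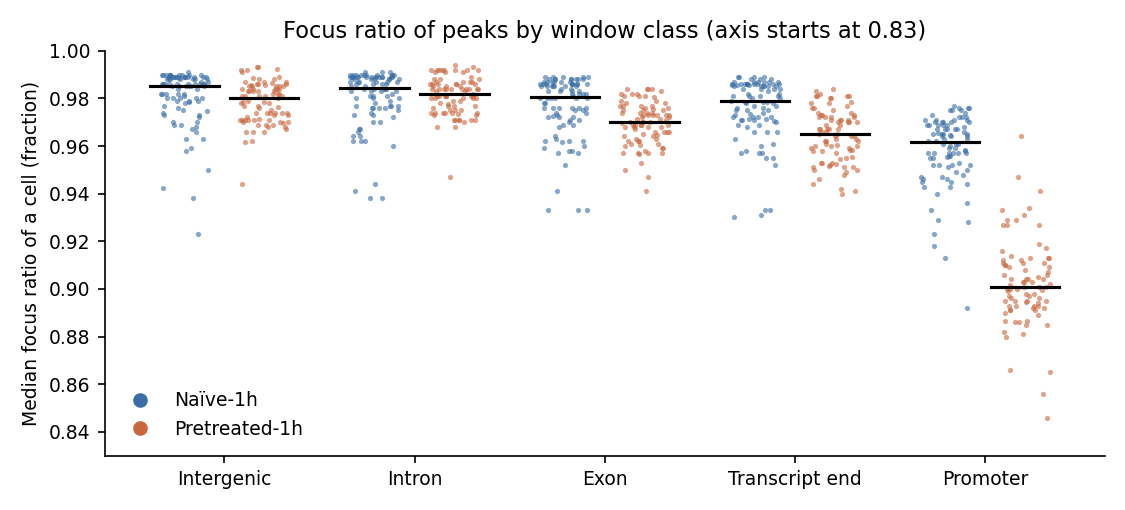
Median focus ratio (fraction) of a cell's peaks, 1 point per cell, by window class and group, with black bars at the median of the cells; the axis starts at 0.83. Intergenic medians lie at 0.985 and 0.980, above promoters at 0.962 and 0.901.

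Partners on the other strand were less frequent at intergenic starts than at promoters and transcript ends. With all loci counted, they were somewhat more frequent than in introns. A pair is a peak of the opposite strand in the same cell whose start lies within 1000 bp. It was found for 595 naïve peaks (2.47%, interval 2.28 to 2.67) and 596 pretreated peaks (3.27%, 3.01 to 3.53). Promoter peaks had 5.38% and 8.20% and transcript-end peaks 3.75% and 5.09%. Intron peaks had 1.64% and 2.07% and exon peaks 2.22% and 3.06%. In 584 of the 595 and 589 of the 596 the partner was itself intergenic. Divergent pairs, pointing away from each other as at many promoters and enhancers, were a minority: 95 naïve (0.394%) and 175 pretreated peaks (0.959%), beside 5.03% and 7.58% of promoter and 0.340% and 0.632% of intron peaks.

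The convergent pairs came mostly from a few places. In 72 naïve cells a plus-strand start at chr6:127473658-127473807, on a B3 element, faced a minus-strand start at chr6:127473708-127473857, so that both windows overlapped. At chr8:103669944-103670093 on the plus strand and chr8:103669994-103670143 on the minus strand the same 50 bp offset recurred in 49 naïve cells. None of these 4 loci was listed in a pretreated cell. On an SSU-rRNA_Hsa repeat (a copy of small-subunit ribosomal RNA) starts at chr6:3151370-3151597 and chr6:3151448-3151645 faced each other in 26 naïve and 80 pretreated cells. With all recurrent loci left out, an alternative chosen after seeing the data, pairs were 181 of 15756 naïve peaks (1.15%) and 247 of 12830 pretreated peaks (1.93%), of which 73 (0.463%) and 119 (0.928%) were divergent. The pair shares of 1.15% and 1.93% lay below the 1.64% and 2.07% of intron peaks, from which no recurrent loci were left out.

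Most intergenic starts lay far from a known start. The deposited distance from the window's centre to the nearest GENCODE start had a median size of 18857 bp over naïve and 17082 bp over pretreated peaks. Within 5000 bp lay 15.7% and 18.5% of the peaks, within 50000 bp 76.01% and 77.1%, and beyond 100000 bp 12.002% and 10.7%. The farthest naïve peak lay 952681 bp away. Near and far peaks were about equally sharp: the median focus ratio was 0.982 both within 5000 bp and beyond 50000 bp in naïve cells, and 0.975 and 0.977 in pretreated cells. Naïve peaks near a start had a higher median signal (556) than those beyond 50000 bp (444), while pretreated peaks had 373 and 366.

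**Figure D3:**
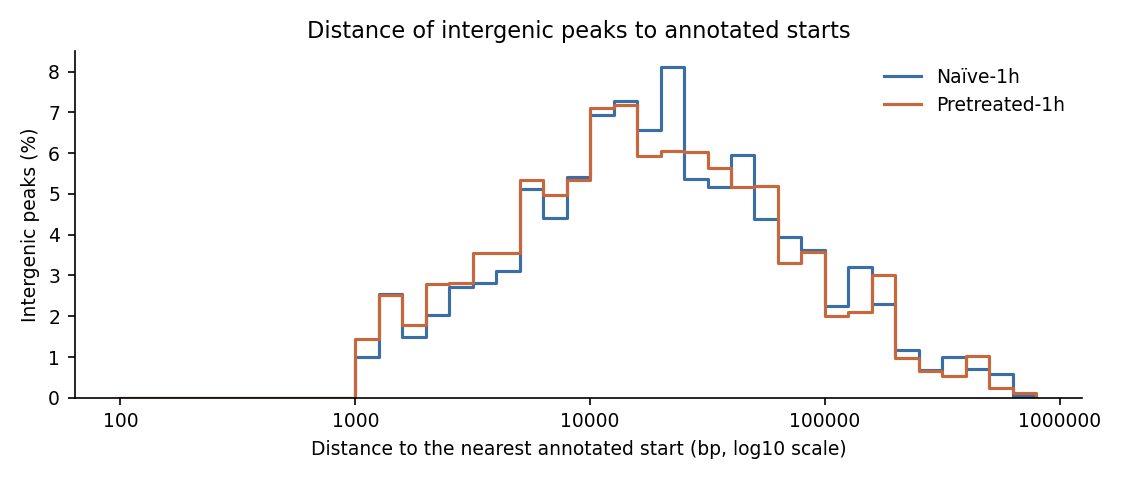
Percentage of intergenic peaks (y) by the size of their distance to the nearest GENCODE start (x, bp, log10 scale), 1 line per group. The medians are 18857 bp in Naïve-1h and 17082 bp in Pretreated-1h cells; peaks nearer than 1000 bp do not occur in this class.

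The starts lay upstream of the nearest annotated start more often than downstream. Part of the downstream side is the gene itself, which the class leaves out. The upstream share that this alone would give was not computed. Upstream of the nearest start were 57.9% of naïve and 57.2% of pretreated peaks, with 63.9% and 68.1% of the tags. Where the strand of the gene could be matched, 32.5% of naïve and 32.4% of pretreated peaks lay upstream on the gene's own strand, the position of an unannotated upstream start. These held 39.4% of the matched naïve tags and 50.9% of the matched pretreated tags. The locus upstream of Frem2 described below weighs on this: without it, an alternative chosen after seeing the data, the shares were 28.1% and 37.3%, and in naïve cells upstream starts on the other strand then held more, 33.5%. All upstream starts together then held 58.2% and 61.01% of the tags. The other placements were less frequent, at 26.8% in both groups for upstream on the other strand, 24.2% and 23.8% for downstream on the same strand, and 16.5% and 16.97% for downstream on the other strand.

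A typical intergenic window was seen once. Of the 27720 windows listed in the kept cells, 24767 (89.3%) occurred in 1 cell, 2641 in 2 to 9 cells and 312 (1.13%) in 10 or more. Among windows of every class 78.4% occurred in 1 cell and 2.19% in 10 or more, among promoter windows 56.5% and 6.83%, and among intron windows 93.8% and 0.317%. The 312 recurrent windows nevertheless held 55.3% of all intergenic tags, and the windows of 1 cell 28.4%. At the threshold, 48 windows occurred in 9 cells and 20 in 10. Because the main position can move by some bases, windows of the same strand with starts within 50 bp were chained to loci, which gave 22818 intergenic loci, 381 of them in 10 or more cells. These 381 held 57.6% of the naïve and 69.6% of the pretreated intergenic tags, and the 10 deepest loci of each group alone 35.1% and 51.2%.

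Of the 381 loci, 13 reached 80% of the naïve as well as of the pretreated cells, and 11 reached 90%. The same shares over recurrent loci of all classes are not given here. The strongest, chr3:53496758-53496913 on the minus strand, lay 35555 bp upstream of Frem2 (an extracellular matrix protein) and was listed in all 92 naïve and all 85 pretreated cells. Its signal ran from 2786 over a median of 50702 to 107421 in naïve cells and from 2268 over 38642 to 98578 in pretreated cells. With 1068011 and 1155107 tags it held 13.7% and 18.3% of all intergenic tags, at a focus ratio of 0.995 and 0.985. Both groups overlapped over nearly their whole range.

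A minus-strand locus at chr6:66825671-66825840, 20641 bp upstream of Gng12 (a G protein gamma subunit) and on the strand opposite to it, was also listed in every cell. Its signal was 525 to 32659 (median 14853) in naïve and 1969 to 39637 (median 15911) in pretreated cells, with overlapping groups. The locus chr7:148364334-148364490 (minus), whose nearest RefSeq start is that of Rnh1 (the ribonuclease inhibitor), was listed in 92 and 84 cells, at medians of 11254 and 8686. The start was broader in the pretreated group, with a focus ratio of 0.682 against 0.959.

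Some recurrent loci were intergenic in GENCODE but sat on a start that another annotation lists. Of the 381, 285 were intergenic in all 3 annotations, 47 had a UCSC promoter, and 52 had a promoter in RefSeq or UCSC. Those described here sat on a RefSeq start. The locus chr10:127986024-127986315 (minus) lay 54 bp after the RefSeq start of Rpl41 and was listed in all cells, with a signal of 459 to 25457 (median 10012) in naïve and 367 to 19364 (median 9670) in pretreated cells. It was broad, with 12 windows and a focus ratio of 0.665 and 0.728. At chr14:48268908-48269144 (plus), 40 bp after a RefSeq start of Ktn1 and 14405 bp before the GENCODE start, 89 naïve and 82 pretreated cells were listed, at medians of 1938 and 1923. This locus comprised 22 windows, the highest number of any recurrent locus. The AA465934 locus chr11:83105117-83105364 (plus) was listed in 65 and 60 cells, at medians of 1517 and 745. The Lockd locus chr6:134879022-134879279 (plus) was listed in 49 naïve (53.3%) and 11 pretreated cells (12.9%), at medians of 1185 and 482. In all, 38 recurrent loci had a RefSeq promoter, 3 with a higher and 1 with a lower share of pretreated cells by at least 20 percentage points (7.89% and 2.63%), beside 18.4% and 4.22% of recurrent loci of all classes and 26.5% and 3.79% of promoter loci.

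Ribosomal sequence recurred as well. The plus-strand locus chr17:39983405-39983690, inside the RefSeq gene Rn45s (the 45S ribosomal RNA precursor), was listed in 85 naïve and 85 pretreated cells, with medians of 6326 and 9353. With a focus ratio of 0.634 it was broad in naïve cells, and at 0.993 sharp in pretreated cells. The remaining loci among the 10 listed in the most cells were chr10:45595022-45595201 (plus, 90 and 85 cells, medians of 3015 and 1478, 198182 bp downstream of the start of Hace1, a ubiquitin ligase), chr19:3205748-3205933 (plus, 88 and 85 cells, 673 and 1681), chr8:113834035-113834204 (minus, 90 and 81 cells, 2619 and 1350, downstream of Mlkl, the effector of necroptosis) and chr3:57522160-57522315. The Rn45s and chr3:57522160-57522315 loci, in 170 cells each, tie with chr10:114706921-114707094 (plus, 87 and 83 cells), which came after them by its fewer tags. The chr10:114706921-114707094 locus has a window on a B3A element, but intergenic B3A peaks occurred in only 63 naïve cells. This chr3:57522160-57522315 locus lay on the minus strand 17759 bp upstream of Rnf13 (a ubiquitin ligase). It was listed in 92 naïve and 78 pretreated cells, but its signal was 393 to 26270 (median 10120) in naïve and 209 to 1073 (median 512) in pretreated cells. The groups overlap only at the low end of the naïve range.

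Between groups, recurrent intergenic loci differed the other way from the recurrent loci of all classes taken as a whole. Of the 381 loci, 37 (9.71%) had a share of cells at least 20 points higher in the pretreated group, beside 18.4% of the 14107 recurrent loci of all classes. A share at least 20 points lower was found for 83 (21.8%), beside 4.22% of all loci. Listed in naïve cells only were 100 (26.2%; 3.62% of all loci) and in pretreated cells only 29 (7.61%; 2.31% of all loci). Among intron loci these shares were 15.7% and 8.51%. By class, 3.79% of promoter and 9.52% of intron loci were lower and 26.5% and 9.68% higher. The median difference was -1.28 points for intergenic loci and 6.94 points for all.

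**Figure D4:**
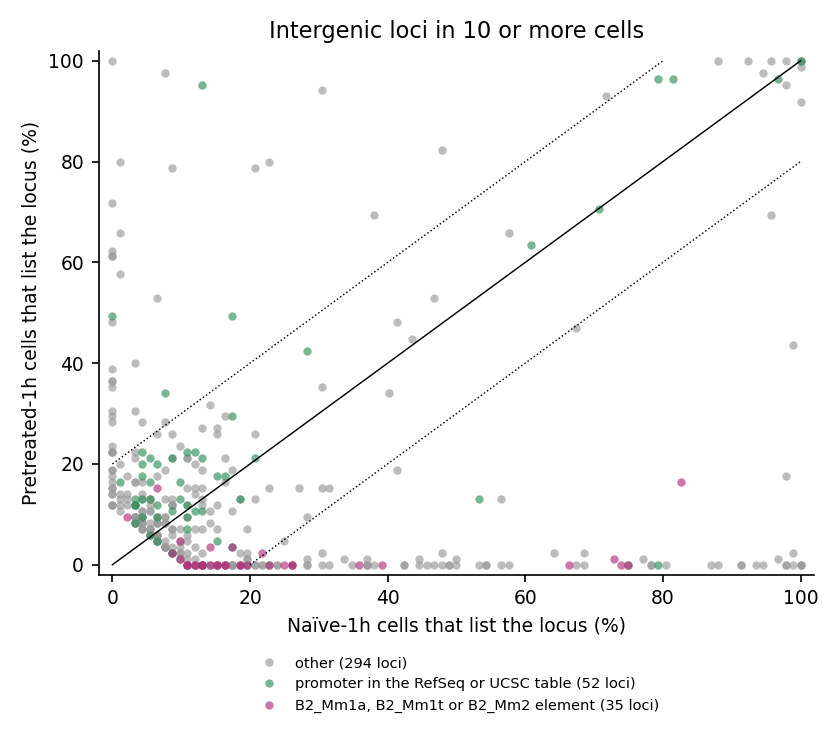
Each point is 1 of 381 intergenic loci listed in 10 or more cells; x is the percentage of 92 Naïve-1h cells and y of 85 Pretreated-1h cells that list it. The solid line marks equal shares and the dotted lines 20 points; 83 loci lie below the lower and 37 above the upper dotted line, and 100 sit on the x axis at 0% of pretreated cells.

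Some loci of 1 group were present in most of its cells. Of the 100 naïve-only loci, 13 reached 80% of naïve cells, and 1 of the 29 pretreated-only loci reached 80% of pretreated cells. These counts too have no share over loci of all classes beside them. The 5 loci with the lowest differences, those described next, were listed in 0 of 85 pretreated cells. At chr10:121200211-121200360 (plus), a (C)n simple repeat near BC048403, all 92 naïve cells had a signal of 1413 to 3522 (median 2462). At chr6:71592055-71592204 (minus), 9230 bp upstream of Kdm3a (a histone demethylase), 91 naïve cells had 518 to 6583 (median 2696). The other three were chrX:127542788-127542937 (plus) near Gm14976 in 92 naïve cells, the minus-strand locus near Parp11 (an ADP-ribosyltransferase) described above in 92, and chr16:4017024-4017173 (minus), upstream of Slx4 (a scaffold of DNA repair nucleases), in 90. A locus near Nfat5 (a transcription factor of the osmotic stress response), chr8:109787120-109787269 (minus, in an intron in the RefSeq table), had the same 90 naïve and 0 pretreated cells as the Slx4 locus and came after it by its fewer tags. Each of the 5 loci consisted of exactly 1 window, and their focus ratios lay between 0.988 and 0.998.

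In the pretreated group 1 locus stood out in the same way. The window chr8:26337757-26337906 on the minus strand, 25910 bp upstream of Tacc1 (a coiled-coil protein of the centrosome and microtubules), was listed in all 85 pretreated and 0 naïve cells. The RefSeq table also calls it intergenic, but the UCSC table places it in an intron. Its signal ran from 7267 over 12227 to 82588 over 418304 tags in all (6.63% of the pretreated intergenic tags), with a median focus ratio of 1.0. At chr8:72534841-72535018 (minus), 14655 bp upstream of Gatad2a (a subunit of the NuRD chromatin complex), 7 naïve and 83 pretreated cells were listed, with a median of 1596 and 3318 where listed. The remaining loci with the highest differences included chr17:39980306-39980520 (minus) in Rn45s with 12 and 81 cells and chrX:45363088-45363265 (plus) near Apln (the peptide hormone apelin) with 1 and 68 cells. Another was chr12:60363966-60364119 (plus) with 0 and 61 cells. It has a window on a tRNA-Gln-CAA copy, but intergenic peaks on any tRNA copy occurred in only 33 pretreated cells.

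Most naïve-only loci were compact. Of the 100 naïve-only loci, 69 consisted of 1 window (median 1), of the 29 pretreated-only loci 6 (median 4), while the 75 loci listed in 10 or more cells of each group had a median of 8 windows. The naïve-only loci were listed in a median of 24 cells and the pretreated-only loci in 20. A locus in more cells can gather more windows, and windows were not compared at equal numbers of cells. In 93 of the 100, no pretreated cell listed a peak of any class or strand within 1000 bp, and for 20 of the 29 pretreated-only loci no naïve cell did. The same shares over 1-group loci of all classes are not given here, so these counts are not a trait of intergenic loci. Peaks on mitochondrial DNA and on unplaced sequence were also listed for 1 group only: 1287 mitochondrial peaks in all 92 naïve cells (0.759% of naïve tags) and 393 on unplaced sequence in 91, against 0 of either in pretreated cells. How the files of the groups were made and the pretreatment itself cannot be told apart in this design. Among the 75 loci shared by both groups, the leading window was the same in 26, moved by 1 to 10 bp in 24 and by more than 10 bp in 25. Their focus ratio was lower in pretreated cells in 49 and higher in 25, with medians of 0.968 and 0.944. This was not particular to these loci. The median over peaks was lower in pretreated cells in every class, at 0.959 and 0.902 for promoters and 0.978 and 0.970 for exons.

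Repeats carried a large part of the naïve starts. SINEs were named as the underlying feature of 18.6% of naïve and 8.54% of pretreated intergenic peaks, with 22.7% and 5.08% of the tags. LINEs (long interspersed repeats) made up 6.67% and 4.92% of the peaks and LTR elements 5.98% and 5.08%. No feature was named for 50.9% and 59.8%.

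Among the SINEs, B2 elements differed the most in number of peaks. The subfamilies B2_Mm1a, B2_Mm1t and B2_Mm2 held 2741 naïve peaks (11.4%) in all 92 cells, 6 to 102 per cell with a median of 29, and 187 pretreated peaks (1.02%) in 59 cells, 0 to 15 per cell with a median of 1. Their tags were 19.3% of the naïve and 0.703% of the pretreated intergenic tags. This grouping of subfamilies was chosen after the values were seen. The related B3 and B3A elements had 386 (1.60%) and 406 (2.22%) peaks, B4 elements 381 and 431, and B1 elements 863 and 442. In introns the 3 B2 subfamilies were also listed far more in naïve cells, with 3382 and 338 peaks, beside 2259 and 1829 on B3 and B3A and 4822 and 3085 on B1 elements. Because mitochondrial and unplaced peaks were also absent from pretreated files alone, this difference too cannot be told apart from how the files were made.

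**Figure D5:**
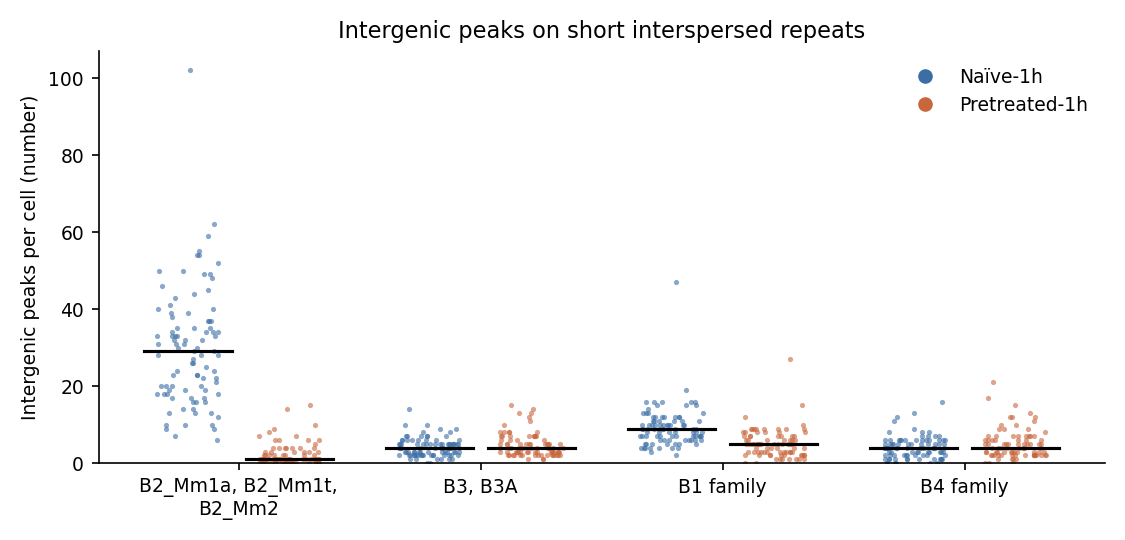
Number of intergenic peaks per cell (y) on 4 groups of short interspersed repeats, 1 point per cell, with black bars at the medians. On B2_Mm1a, B2_Mm1t and B2_Mm2 the medians are 29 in Naïve-1h and 1 in Pretreated-1h cells, while on B3 and B3A and on the B4 family they are 4 in both groups.

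The B2 starts were scattered. The 2741 naïve peaks fell on 1299 windows, 929 of which occurred in 1 naïve cell, and the 5 deepest windows held 19.97% of the B2 tags. Recurrent loci on these subfamilies numbered 35, of which 11 had a lower and 0 a higher share of pretreated cells by 20 points, and 25 were listed in no pretreated cell. The shares of 31.4% lower and 71.4% naïve-only stand beside 21.8% and 26.2% of all recurrent intergenic loci, and 4.22% and 3.62% of recurrent loci of every class. The most frequent, chr4:81601426-81601575 (plus, B2_Mm1a), was listed in 76 naïve and 14 pretreated cells, at medians of 553 and 323 where listed. At chr7:20519101-20519251 (plus, B2_Mm1a), 12667 bp upstream of Pvr (the poliovirus receptor), 68 naïve and 0 pretreated cells were listed, with a median of 705 and a highest cell of 91348. Outside all recurrent loci the subfamilies still held 12.3% of naïve and 1.10% of pretreated intergenic peaks, an alternative chosen after seeing the data.

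Further repeats differed in either direction, in smaller numbers. Peaks on scRNA repeats, chiefly 4.5SRNA copies, numbered 320 in naïve and 15 in pretreated cells, and simple repeats 500 and 183. Some single elements outside the B2 subfamilies were also listed mostly in naïve cells. The B1 element B1_Mm had 199 and 21 peaks, the LINE element L1Md_F2 221 and 14, and repeats of unknown class 96 and 3. Others went the other way, such as B3A with 123 and 213 and L1_Mus1 with 62 and 88. Peaks on ribosomal RNA repeats numbered 247 and 268, on tRNA copies 5 and 34, on DNA transposons 81 and 102, and CpG islands, stretches rich in CG dinucleotides that mark many promoters, 287 (1.19%) and 461 (2.53%).

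Interferon-responsive genes were nearest to under 1% of the intergenic starts. Of 103 such genes in the list used here, only Parp14 (an interferon-inducible ADP-ribosyltransferase) was nearest to a recurrent locus, among the 311 recurrent loci whose nearest gene could be matched. That locus, chr16:35876786-35876935 (plus), lies 5230 bp upstream of Parp14 on the other strand and on a 4.5SRNA copy. It was listed in 18 naïve cells, at 261 to 2967 (median 637), and in 1 pretreated cell at 212. Over all matched intergenic peaks, 70 naïve (0.343%, interval 0.268 to 0.434) and 74 pretreated peaks (0.491%, 0.386 to 0.616) had a listed gene nearest, so the intervals overlap. List genes made up 0.463% of the 20728 matched genes nearest to a window of any class. Among the 7109 nearest to an intergenic window they made up 0.450%. Those are shares of genes, each counted once, and not of peaks, so the peak shares cannot be measured against them. By tags the order turned, with 0.232% in naïve and 0.179% in pretreated cells.

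The nearest gene had a peak of its own in the same cell for a minority of cell and gene pairs. Outside recurrent loci, a peak on the strand of the nearest gene, in a window of any class but intergenic, was listed in the same cell for 19.96% of 12608 naïve cell and gene pairs and 24.01% of 10253 pretreated pairs. In the other cells of the group the same genes were listed at 18.5% and 22.03%, only slightly less. Within 5000 bp the values were 21.6% against 20.8% in naïve and 25.9% against 24.3% in pretreated cells. The share of all genes with such a peak in a cell is not given here. Whether the nearest genes differ from other genes in this share was not tested.

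Of the 381 recurrent loci, 46 lay more than 100000 bp from a start. They were listed in a median of 28.5 cells, beside 20 for all 381. The farthest of the recurrent loci, chr14:71977031-71977181 (plus, on an L1_Mur2 element), lay 553790 bp from a start and was listed in 16 naïve and 0 pretreated cells. At chr9:17590193-17590345 (minus), 506444 bp upstream of Chordc1 (a heat-shock co-chaperone), 84 naïve and 0 pretreated cells were listed, at 205 to 1106 (median 459). The third, chr1:144990077-144990258 (minus), 463578 bp away, was listed in 15 and 25 cells, with medians of 519 and 359 and overlapping groups. Close to it on the same strand, chr1:144991115-144991294 at 462538 bp, named after its values were seen, was listed in 44 naïve and 70 pretreated cells.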

How the data were processed

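The authors aligned with Bowtie2 and used HOMER on mm9, per the submitters' processing notes; the aligner settings are not given in the sources used here. Peak calling ran cell by cell and strand by strand, per the file headers, with a width of 150 bp, at least 300 bp apart, at least 200 tags per 10000000, at least 2 times the surrounding 10000 bp and a Poisson p of at most 1e-04. The deposited signal is the tags of a peak per 10000000 tags of the cell, and the deposited focus ratio is a fraction. Tags were recovered from the signal and the header total. The annotation, the repeat names and the distance to a start (in bp) come from the authors' deposited tables.

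Each peak was joined to a window whose start lay within 2 bp (1080791 of 1082504 peaks, while 1713 lay outside the tables). The join used chromosome and start, and strand was not compared. Cells with under 10% of the median header total were left out, 4 naïve and 11 pretreated. Shares of tags have exact Clopper-Pearson 95% intervals; tags are not independent molecules, so these cover counting error only. Neighbouring windows within 50 bp on 1 strand were chained to loci. Named loci are the 10 listed in the most cells, the 5 with the highest and the 5 with the lowest difference in share of cells, the 3 farthest from a start and those nearest to an interferon gene. Other loci were named after their values were seen. The members and lists were chosen with earlier results of these data known. No test was made, since each group is 1 sample; 384 columns of per-cell values without sample names were not used. Sequences came from RefSeq (GRCm38.p6). Functions were tested on simulated data. Python 3.11.15, pandas 2.3.3, NumPy 2.4.6, SciPy 1.17.1 and Matplotlib 3.10.9 were used.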

Additional observations from a re-analysis of the deposited data

Results flagged for a closer look

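Peaks outside the annotated windows were listed for naïve cells only. On mitochondrial DNA they made up 0.759% of all naïve tags in peaks and occurred in each of the 92 cells, against 0 peaks in pretreated cells. On unplaced or random sequence they made up 0.0325% and occurred in 91 naïve cells, also against 0 pretreated peaks. No comparison uses these peaks; they were set apart because they carry signal outside the windows. Their link with the naïve-only intergenic loci and B2 peaks was not tested.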

How the results depend on the processing

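The intergenic share of tags, 4.29% in naïve and 2.60% in pretreated cells, was higher in naïve cells under each alternative: 9.03% and 4.48% with the RefSeq table, 3.59% and 1.88% for windows intergenic in all 3 tables, 4.16% and 2.48% as the median over cells, and 3.80% and 2.42% without the window with the most tags. A minimum of 20% of the median total gave 4.28% in naïve cells and no depth filter 2.61% in pretreated cells, both outside the counting interval. Pairs went to 2.03% and 2.45% within 500 bp, 3.50% and 4.82% within 2000 bp, and 1.15% and 1.93% without recurrent loci; for windows intergenic in all 3 tables they were 2.71% in pretreated cells. Recurrent windows numbered 726 at 5 cells and 154 at 20 cells. At 10 points, 88 loci were higher and 138 lower. The B2 subfamilies held 12.3% of naïve peaks outside recurrent loci. Without the deepest locus, the upstream same-strand share of matched tags went from 39.4% to 28.1% in naïve cells. In pretreated cells it went from 50.9% to 37.3%. For every other alternative run, counts stayed within 1.5 times and shares and focus ratios within their spread; the cause of the moves was not tested. No paired analysis was possible because no test was made and the cell numbers only name cells. With 1 sample per group, differences between groups have no replicate check, and a window missing from a cell's list may have fallen under the tag minimum.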

Other observations

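Intergenic tags were unevenly spread over chromosomes. Chromosome 3, which holds the locus upstream of Frem2, carried 21.3% of naïve and 21.4% of pretreated intergenic tags with 7.80% and 7.70% of the peaks. Chromosome 8, with the window upstream of Tacc1, carried 4.38% of naïve and 11.4% of pretreated intergenic tags at 5.92% and 6.49% of the peaks. On chromosome Y 1 intergenic window was listed, in pretreated cells. Of the 34 recurrent loci on chromosome 6, 15 had a share of pretreated cells at least 20 points lower (44.1%) and 3 a higher one (8.82%), beside 21.8% and 9.71% of all 381 recurrent intergenic loci and 4.22% and 18.4% of recurrent loci of every class; this chromosome was chosen after its counts were seen.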
